A study of Mus musculus with 2 samples.

Results

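Expression of 10 regulators of hair follicle growth and hair shaft differentiation was examined in bulk mRNA sequencing data from skin wounds of WT and PU.1-/- neonatal mice. The genes were Lef1, Shh, Msx2, Hoxc13, Foxn1, Sox9, Lhx2, Wnt10b, Edar and Dsg4, taken by symbol as a fixed list of known function, and all 10 of them were found among the 24346 genes listed. Pups of the C57BL/6J strain, 1 day old and littermates, were wounded on the back through the whole thickness of the skin, and RNA was taken from the wound after 24 h. The study's methods call the wounds incisional and the design text of the series calls them excisional. WT pups carry PU.1, and PU.1-/- pups lack this transcription factor in every tissue, which leaves them without macrophages, neutrophils, mast cells and T cells. There was 1 library per genotype, and neither the number of pups behind a library nor their sex is given in the sources used here.

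Values are FPKM, read fragments scaled by transcript length and by library size, which allow levels of different genes to be set side by side per length. With 1 library per genotype there is no spread between animals, no test and no p-value. The 95% intervals given are exact intervals on read numbers estimated from FPKM and transcript length, and they cover counting error only. Depth was estimated at 13800000 fragments for the WT library and 15900000 for the PU.1-/- library. Spi1, the gene that encodes PU.1, stood at 35.4 FPKM without the deletion and at 1.45 FPKM with it. Xist had a value of 0 in WT, as did 4 Y-linked genes in PU.1-/-, so differences by genotype and by sex of the pups cannot be told apart. In whole wound tissue, fewer cells of a type and less RNA per cell cannot be told apart either.

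The hair follicle is built by exchanges between epithelium and dermis. Wnt and Eda signals mark the placode, Shh drives its downgrowth, and the outer root sheath and bulge come to hold the stem cells of the follicle. Above the dermal papilla, matrix cells divide and then differentiate into the inner root sheath and the hair shaft, under transcription factors such as Msx2, Hoxc13 and Foxn1. Shaft cells fill with hard keratins and are then packed with keratin-associated proteins. In newborn mice the dorsal follicles are still forming, and the first hairs have yet to emerge.

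Levels of the 10 regulators were close in the WT and PU.1-/- wounds. None of the 10 was 2-fold lower or 2-fold higher in the PU.1-/- library, where 4.34% of all genes were at least 2-fold lower and 2.32% at least 2-fold higher. At 1.5-fold the count was again 0 of 10, against 7.67% of all genes lower and 5.79% higher. At 3-fold these shares of all genes were 2.8% and 0.616%. All genes here include those below 0.1 FPKM in both libraries, which could not be counted as different. Among only 10 genes, a count of 0 is near these shares and does not set the regulators apart. Their log2 ratios, each PU.1-/- divided by WT, had a median of −0.14, beside −0.01 over the 16298 genes that reached 0.1 FPKM in either library. Within these small differences the counting interval lay below a ratio of 1 for Foxn1, Msx2 and Dsg4 and above 1 for Sox9 and Lef1, and it held 1 for the other 5 genes. For Lef1 this was lost when the libraries were scaled on interfollicular keratinocyte markers. Sox9, the highest of the ratios, and Foxn1, the lowest, were 1.05 apart on the log2 scale. Some other genes at this level of expression differed as much. The genes compared include leukocyte and Y-linked genes and genes with fewer reads than Sox9. Of 8598 genes with a mean of 1 to 20 FPKM, the middle 90% had log2 ratios from −0.93 to 0.64, with 6.27% at or above the ratio of Sox9 and 11.4% at or below that of Foxn1.

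**Figure D1:**
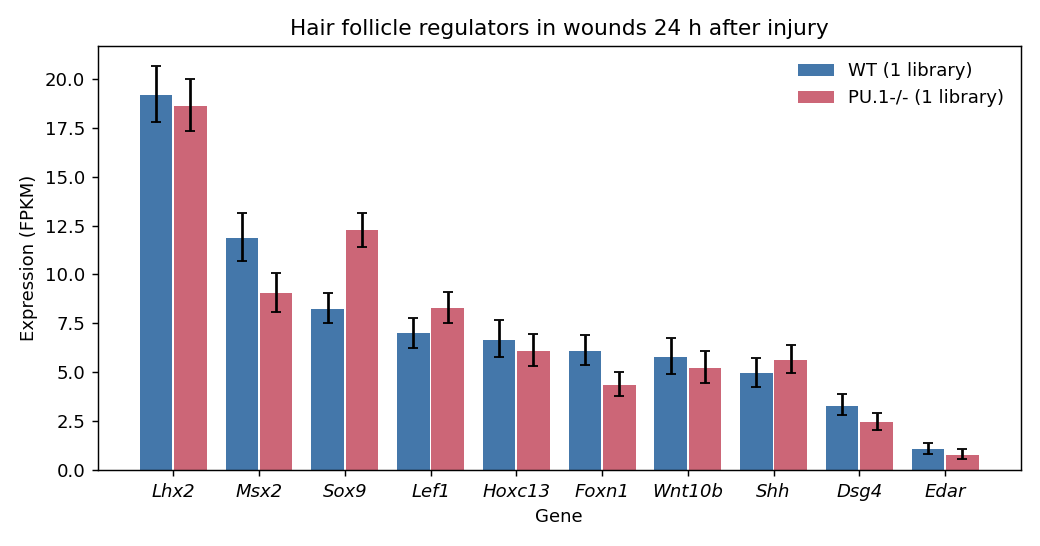
Expression (FPKM, y axis) of the 10 regulators in the WT and PU.1-/- libraries, 1 bar per library, ordered by the WT level. Error bars are exact 95% Poisson intervals on estimated reads and do not show a spread between animals. Lhx2 is the most abundant in both libraries, and the bars of Sox9 differ the most.

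The genes spanned a wide range of levels. In the WT wound Lhx2 was highest at 19.2 FPKM, followed by Msx2, Sox9, Lef1, Hoxc13, Foxn1, Wnt10b, Shh, Dsg4 and, at 1.08 FPKM, Edar. In the PU.1-/- wound Lhx2 was again highest and Edar lowest, while Sox9 stood above Msx2 and Foxn1 moved from place 6 to place 8. The counting intervals of neighbours in this order overlapped in 5 of 9 pairs in the WT library, all in the run from Sox9 to Shh, so that adjacent places in that run are not resolved, although the interval of Sox9 lay clear of those of Foxn1, Wnt10b and Shh. They overlapped in 4 of 9 pairs in the PU.1-/- library. Lhx2 lay at percentile 81.5 of all genes listed in the WT library and Edar at percentile 47.1.

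Wnt10b and Lef1 belong to the Wnt arm. Wnt10b, a ligand of the placode and matrix (chromosome 15 of mm10, 98770712 to 98778206, minus strand), was at 5.79 (WT) and 5.23 FPKM (PU.1-/-), a ratio of 0.903 (interval 0.723 to 1.13). Lef1, the transcription factor that carries Wnt signals with β-catenin (chromosome 3, 131110297 to 131224357, plus strand), was at 6.99 and 8.27 FPKM, a ratio of 1.18 (1.02 to 1.37). The ligand was thus nearly level, and the factor slightly higher in the PU.1-/- wound. Lef1 has transcripts of 3 lengths linked to RefSeq, so its estimated reads, 317 and 431, are less certain. The wider Wnt list held genes on both sides. Of its 16 genes, 15 reached 0.1 FPKM, 1 was 2-fold lower and none 2-fold higher, with a median log2 ratio of −0.01. The counting interval lay above 1 for 5 genes, Lgr5 (ratio 1.47), Wnt4, Lgr6 (1.197), Axin2 (1.17) and Ctnnb1, and below 1 for Wnt3a (0.622) and Wnt10a. The 1 was Dkk1, a Wnt inhibitor, at 0.249 and 0.0929 FPKM, about 8 and 3 reads. Ctnnb1, which encodes β-catenin, was at 248 and 261 FPKM, and Wls, needed for Wnt secretion, at 54.2 and 52.0 FPKM. Wnt4 was at 48.1 and 62.5 FPKM, a ratio of 1.299 (1.24 to 1.36). Wnt10a, the close relative of Wnt10b, was at 13.6 and 11.3 FPKM, a ratio of 0.826 (0.719 to 0.948). Both Wnt10 genes therefore had ratios below 1, although the interval of Wnt10b reached past it.

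Edar is the receptor for ectodysplasin in the placode. It lies on chromosome 10 from 58600780 to 58675696 on the minus strand and was the lowest of the 10, at 1.08 (WT) and 0.795 FPKM (PU.1-/-). About 52 and 44 reads stand behind these values, and the ratio of 0.737 carried an interval of 0.482 to 1.12, the widest of the 10. No difference of Edar was detected at this depth. Its ligand gene Eda was at 3.80 and 3.72 FPKM and its adaptor gene Edaradd at 0.993 and 0.976 FPKM, with ratios of 0.979 and 0.982. None of the 5 genes of the Eda list was 2-fold changed in either direction. Eda2r, a receptor for the other ectodysplasin isoform, was the farthest from level, at 4.19 and 6.99 FPKM, a ratio of 1.67 (1.43 to 1.94). Traf6, an adaptor of many receptors, was at 19.3 FPKM in both libraries, and Tnfrsf19 at 15.4 and 13.3 FPKM.

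Shh, the secreted signal of follicle downgrowth, lies on chromosome 5 from 28456840 to 28467101 on the minus strand. It was at 4.95 (WT) and 5.64 FPKM (PU.1-/-), a ratio of 1.14 (0.935 to 1.39) from 182 and 238 reads. An antisense gene that overlaps it, 9530036O11Rik, was at 0.0265 and 0.0693 FPKM. Its receptor gene Ptch1, also a target of the pathway, was at 13.8 and 15.1 FPKM, a ratio of 1.10 (1.03 to 1.18). Gli1, a transcription factor and pathway target, was at 8.61 and 9.80 FPKM, a ratio of 1.14 (1.01 to 1.29). Ligand, receptor and target thus had ratios of 1.10 to 1.14. Of the 11 genes in the Shh list, 10 were above their WT level and none reached 2-fold, with a median log2 ratio of 0.14 that became −0.02 when the libraries were scaled on interfollicular keratinocyte markers. Among the most abundant, Gas1, a co-receptor, was at 74.6 and 98.6 FPKM and Smo, the signal transducer, at 23.6 and 25.6 FPKM. Hhip, which binds and limits hedgehog ligands, had the highest ratio of the list, 1.53 (1.28 to 1.85), at 1.47 and 2.25 FPKM.

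Sox9 and Lhx2 are transcription factors of the follicle's progenitors. Sox9, of the outer root sheath and early stem cells (chromosome 11, 112782210 to 112787757, plus strand), was at 8.25 (WT) and 12.3 FPKM (PU.1-/-). Its ratio of 1.49 (1.32 to 1.67), from 451 and 770 reads, was the largest difference of the 10. Sox9 is also expressed outside the follicle, in cartilage for example, and which cells its reads came from was not tested. Lhx2, of the placode and bulge (chromosome 2, 38339271 to 38369737, plus strand), was at 19.2 and 18.6 FPKM, a ratio of 0.972 (0.876 to 1.08). The interval of Sox9 did not overlap that of Lhx2. Among other genes of the outer root sheath and bulge, Krt15, a keratin of basal and bulge cells, was at 74.9 and 114 FPKM, a ratio of 1.53 (1.43 to 1.62). Cd34, found on bulge cells but also on vessels and fibroblasts, was at 46.5 and 63.7 FPKM. Krt17, the abundant keratin of the outer root sheath that wounded epidermis also makes, was at 973 and 901 FPKM. The list of 9 genes had a median log2 ratio of −0.01, with no gene 2-fold changed in either direction. That median was the value of Fgf18, from about 9 and 11 reads. With only genes of at least 1 FPKM the median was 0.12. The interval lay above 1 for 4 of the 9 and below 1 for 2, Krt17 and Krt75. Krt75 had the lowest ratio of the list, 0.701 (0.651 to 0.754), at 37.9 and 26.5 FPKM.

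Msx2, Hoxc13, Foxn1 and Dsg4 act in the matrix and the shaft, and the ratio of each was below 1. Msx2, a homeobox gene of the matrix (chromosome 13, 53466881 to 53472780, minus strand), was at 11.9 (WT) and 9.03 FPKM (PU.1-/-), a ratio of 0.762 (0.656 to 0.890). Foxn1, whose loss gives the nude mouse (chromosome 11, 78357577 to 78386783, minus strand), was at 6.09 and 4.37 FPKM, a ratio of 0.719 (0.596 to 0.867) from 253 and 209 estimated reads. Dsg4, the desmosomal cadherin of the shaft (chromosome 18, 20436175 to 20471821, plus strand), was at 3.30 and 2.45 FPKM, a ratio of 0.743 (0.582 to 0.947) from 150 and 128 reads. These 3 genes stood at 71.9% to 76.2% of their WT level. Hoxc13, which switches on hard keratins (chromosome 15, 102921131 to 102928814, plus strand), was at 6.68 and 6.09 FPKM, and its ratio of 0.913 (0.751 to 1.11) was not distinguishable from 1. With the libraries scaled on interfollicular keratinocyte markers the interval of Hoxc13 lay below 1 as well, as did that of Lhx2.

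**Figure D2:**
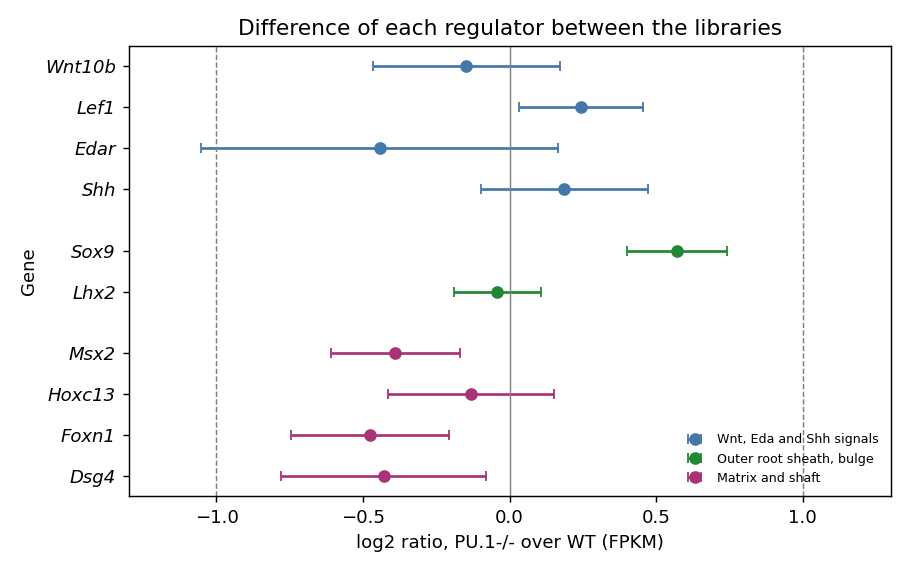
The log2 ratio of FPKM, PU.1-/- over WT (x axis), of each regulator (y axis), grouped by role. Points are the ratios, bars the exact 95% counting intervals, and dashed lines mark 2-fold. Each of the 4 matrix and shaft genes lies left of 0, as do Edar, Wnt10b and Lhx2. Sox9 lies right of 0 at 0.57, and no point reaches 2-fold.

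Other regulators of the matrix and shaft were spread around level. In that list of 16 genes none was 2-fold changed in either direction, and the median log2 ratio was −0.08. Dlx3, a homeobox gene known to act upstream of Hoxc13, was at 35.4 and 27.1 FPKM, a ratio of 0.767 (0.705 to 0.834). Foxq1, a shaft factor downstream of Hoxc13, was at 3.33 and 2.71 FPKM, a ratio of 0.813 (0.665 to 0.992). Hr, the hairless co-repressor, was at 75.04 and 95.5 FPKM, and Bmpr1a, a BMP receptor of the matrix, at 34.1 and 36.2 FPKM. Dlx3 and Foxq1 were thus on the side of Msx2, Foxn1 and Dsg4, and Hr on that of Sox9. Among the 16 genes the counting interval lay below 1 for 5 and above 1 for 5. Desmosomal genes that the interfollicular epidermis shares lay closer to level than Dsg4. Of the 11 genes in that list 8 were above their WT level, with a median log2 ratio of 0.06 that became −0.09 when the libraries were scaled on interfollicular keratinocyte markers. Dsc1 and Dsg1a, cadherins of the differentiated epidermal layers, were below their WT level like Dsg4, with ratios of 0.889 (0.857 to 0.921) and 0.918 (0.879 to 0.959) whose intervals overlapped that of Dsg4. Dsg3, the related cadherin of basal keratinocytes, was at 63.8 and 73.8 FPKM, and its ratio of 1.16 (1.12 to 1.199) had an interval above that of Dsg4. Pkp1, Dsp and Jup, which link the cadherins to keratin, had ratios of 1.05, 1.06 and 1.11.

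Promoter sequences of the regulators are shown beside those of shaft genes so that the factors of the differentiation programme can be read next to its products, which follow. They run from 250 bases before to 50 bases after a start of transcription and are from RefSeq (GRCm38.p6, the assembly of mm10). For Msx2 and Edar this start is the upper limit of the gene span given above, while for Foxn1 it lies within that span. The table used gave a promoter for 6 of the 10 genes, Lef1, Lhx2, Edar, Foxn1, Msx2 and Wnt10b, and the first window was searched where a gene has several. Capitals mark TATAAA, the core letters of a TATA box, and CTTTGAT, the letters of a site for the Lef1 family, each searched on both strands and anywhere in the window. The windows are chr11:78386559-78386858 for Foxn1, chr13:53472731-53473030 for Msx2, chr10:58675647-58675946 for Edar, chr11:100041505-100041804 for Krt34, chr16:89487903-89488202 for Krtap8-1 and chr16:88896400-88896699 for Krtap19-5, each on the minus strand and printed 5′ to 3′ of the gene.
Foxn1: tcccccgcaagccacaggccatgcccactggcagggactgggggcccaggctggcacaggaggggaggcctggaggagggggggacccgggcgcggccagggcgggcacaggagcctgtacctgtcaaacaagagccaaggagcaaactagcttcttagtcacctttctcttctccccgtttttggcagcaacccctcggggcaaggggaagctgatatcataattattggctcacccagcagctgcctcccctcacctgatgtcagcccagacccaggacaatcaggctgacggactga
Msx2: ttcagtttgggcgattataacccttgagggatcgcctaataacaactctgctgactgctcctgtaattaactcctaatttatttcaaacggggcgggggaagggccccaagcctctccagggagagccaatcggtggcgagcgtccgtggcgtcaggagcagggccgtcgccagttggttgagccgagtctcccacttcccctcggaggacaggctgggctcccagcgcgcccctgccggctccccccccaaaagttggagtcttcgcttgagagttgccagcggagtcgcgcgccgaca
Edar: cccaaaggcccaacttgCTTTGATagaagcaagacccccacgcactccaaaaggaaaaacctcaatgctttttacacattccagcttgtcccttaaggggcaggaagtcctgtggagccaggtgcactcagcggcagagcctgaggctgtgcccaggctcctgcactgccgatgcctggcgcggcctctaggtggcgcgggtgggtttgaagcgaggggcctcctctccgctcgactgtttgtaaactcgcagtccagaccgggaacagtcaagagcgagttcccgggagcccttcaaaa
Krt34: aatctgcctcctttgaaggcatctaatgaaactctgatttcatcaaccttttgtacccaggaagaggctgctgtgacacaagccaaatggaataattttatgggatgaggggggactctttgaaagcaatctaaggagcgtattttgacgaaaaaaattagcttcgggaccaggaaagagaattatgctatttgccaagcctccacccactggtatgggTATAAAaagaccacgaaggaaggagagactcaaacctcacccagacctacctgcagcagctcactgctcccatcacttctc
Krtap8-1: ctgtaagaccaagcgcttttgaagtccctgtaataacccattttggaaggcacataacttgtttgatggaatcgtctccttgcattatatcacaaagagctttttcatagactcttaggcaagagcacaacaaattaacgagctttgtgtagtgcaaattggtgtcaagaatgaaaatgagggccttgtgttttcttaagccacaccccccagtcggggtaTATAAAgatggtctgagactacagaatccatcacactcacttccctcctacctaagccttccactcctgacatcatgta
Krtap19-5: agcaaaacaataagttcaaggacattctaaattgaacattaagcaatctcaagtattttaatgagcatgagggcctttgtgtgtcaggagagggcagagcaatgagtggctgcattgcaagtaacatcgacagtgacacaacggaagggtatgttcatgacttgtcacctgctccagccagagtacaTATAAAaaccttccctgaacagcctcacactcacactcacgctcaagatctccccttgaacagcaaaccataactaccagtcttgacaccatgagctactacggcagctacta
TATAAA was in none of the 6 promoters of the regulators and in 14.2% of all 27025 promoters. It was in 6 of 9 promoters of the shaft keratins, 7 of 8 of the inner root sheath genes and 39 of 48 of the keratin-associated protein genes. In Krt34, Krtap8-1 and Krtap19-5 it begins 31, 29 and 63 bases before the start. Counted on the gene's strand and from 40 to 20 bases before the start, where a TATA box lies, it was in 4 of 9, 5 of 8 and 28 of 48 of these promoters, in none of the 6 of the regulators and in 2.22% of all promoters. CTTTGAT was in 1 of the 6 promoters of the regulators, that of Edar, 233 bases before the start, and in 3.72% of all promoters. It was in 0 of 9 promoters of the shaft keratins, 0 of 8 of the inner root sheath genes and 4 of 48 of the keratin-associated protein genes. Other spellings of a Lef1 family site were not searched, so an unmarked window may hold them. These matches are letters in a short window and say nothing of binding in these wounds.

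Hoxc13 and Foxn1 are known to regulate in part the structural products of the differentiating follicle. The lists of these products had median log2 ratios below the −0.14 of the 10 regulators. Foxn1 (−0.48), Dsg4 (−0.43) and Msx2 (−0.39) were themselves below the −0.36 of the inner root sheath list. Of the 15 hard keratins of the shaft, 14 were below their WT level and 1, Krt36, was 2-fold lower, with a median log2 ratio of −0.53 (4.34% of all genes were 2-fold lower). Krt35, the most abundant, was at 53.3 and 44.8 FPKM, a ratio of 0.840 (0.772 to 0.914). Krt32 was at 17.1 and 12.0 FPKM and Krt85 at 13.1 and 8.42 FPKM. Krt36 was at 4.81 and 2.11 FPKM, a ratio of 0.440 (0.305 to 0.626), from about 97 and 49 reads. The list summed to 148 (WT) and 111 FPKM (PU.1-/-), or 74.5%, beside 71.9% for Foxn1, 74.3% for Dsg4 and 91.3% for Hoxc13. The sum depends less than single values on how reads were divided between near-identical copies such as Krt33a and Krt33b, whose single values are uncertain.

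Genes of the inner root sheath, the layer that moulds the shaft, gave values near these. Of 9 genes 8 were below their WT level, none was 2-fold lower and the median log2 ratio was −0.36. The exception, Krt74, rested on about 3 and 4 reads. Krt25 was at 316 and 227 FPKM, Krt71 at 211 and 144 FPKM and Krt27 at 144 and 112 FPKM, with ratios of 0.718, 0.679 and 0.783. These keratins are abundant, so that the counting interval of Krt25 was narrow, from 0.695 to 0.743.

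**Figure D3:**
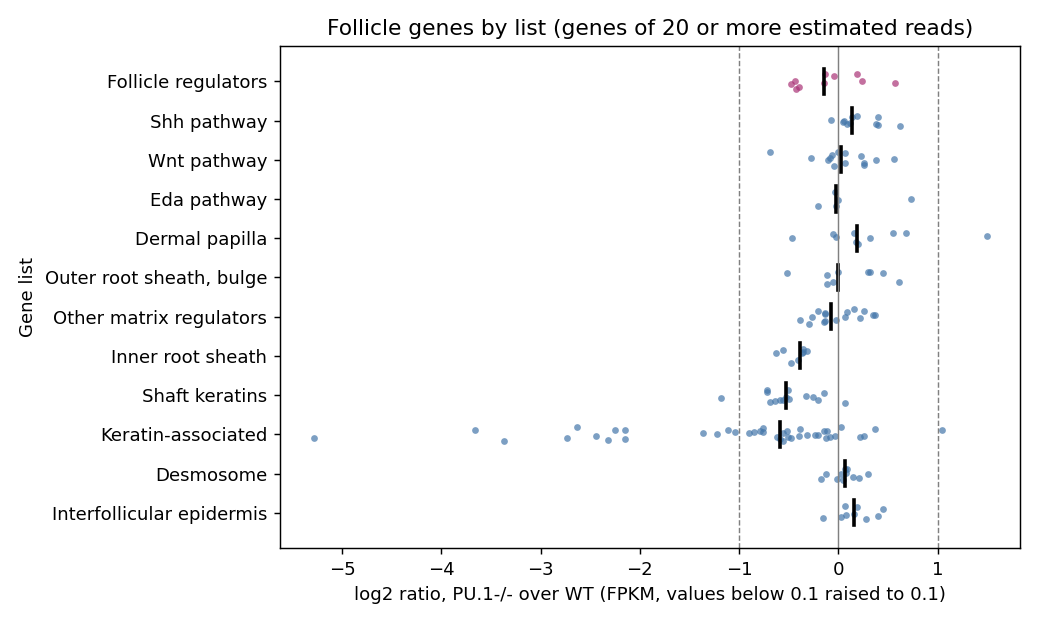
The log2 ratio of FPKM, PU.1-/- over WT (x axis), of single genes (points) in 12 lists (y axis), for genes with at least 20 estimated reads over both libraries or with no transcript length. Black bars are list medians and dashed lines mark 2-fold. The inner root sheath, shaft keratin and keratin-associated lists have medians of −0.39, −0.53 and −0.59, left of the other lists.

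The keratin-associated proteins, which are made last and cross-link the keratins, had the lowest median log2 ratio of the follicle lists, −0.56. This was close to the −0.53 of the shaft keratins. Of 53 genes listed, 17 (32.1%) were at least 2-fold lower in the PU.1-/- library and 5 at least 2-fold higher, beside 4.34% and 2.32% of all genes. With at least 20 reads over both libraries 41 genes were left, of which 14 were lower and 1 higher, with a median log2 ratio of −0.59. Krtap7-1 was at 79.9 and 37.1 FPKM, Krtap8-1 at 54.0 and 20.95 FPKM and Krtap3-1 at 35.3 and 29.9 FPKM. The first pair belong to the high glycine-tyrosine families, a grouping applied after the values were seen. It was made by family number alone, and the remaining families were not checked for the same composition. In the grouped families (Krtap6, 7, 8, 19, 20, 21 and 22) 13 of 14 genes reached 0.1 FPKM and each of the 13 was 2-fold lower. Of these, 10 had at least 20 reads over both libraries, while Krtap19-4 rested on about 1 read against 0. Their summed level was 250 (WT) and 74.9 FPKM (PU.1-/-), or 30.0%. For the other 39 Krtap genes the sum was 305 and 217 FPKM, or 71.1%, with 4 genes 2-fold lower and 5 higher. The median log2 ratio of these other genes was −0.35, beside −2.63 in the high glycine-tyrosine families and −0.36 in the inner root sheath.

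Single genes of the high glycine-tyrosine families differed more than any regulator. Krtap19-5 was at 9.14 and 0.234 FPKM, about 36 reads against 1, a ratio of 0.0256 (0.000596 to 0.144). Krtap19-9b was at 19.3 and 1.52 FPKM, and Krtap19-3 at 14.5 and 1.41 FPKM. Krtap19-2 was at 1.29 and 0.160 FPKM, and Krtap19-1 was at 2.84 FPKM in WT and listed at 0 in PU.1-/-. Krtap16-3, of a family not placed in that group, was at 5.87 and 0.880 FPKM, about 32 and 6 reads. Krtap15, also outside these families, was at 20.1 and 4.53 FPKM, a ratio of 0.225 (0.158 to 0.314) from 174 and 45 reads. Krtap14 and Krtap1-5, outside them as well, had ratios of 0.429 and 0.486, while 5 genes outside them were 2-fold higher. The counting interval held 1 for each of those 5. Among all Krtap genes outside the grouped families it lay below 1 for 16 and above 1 for 0. The Krtap19 genes are close copies of one another, so reads may have been divided among them, which was not tested. The summed level given above covers all of the grouped families and does not single out the Krtap19 genes. Krtap transcripts are short, and few reads stand behind many of the values.

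**Figure D4:**
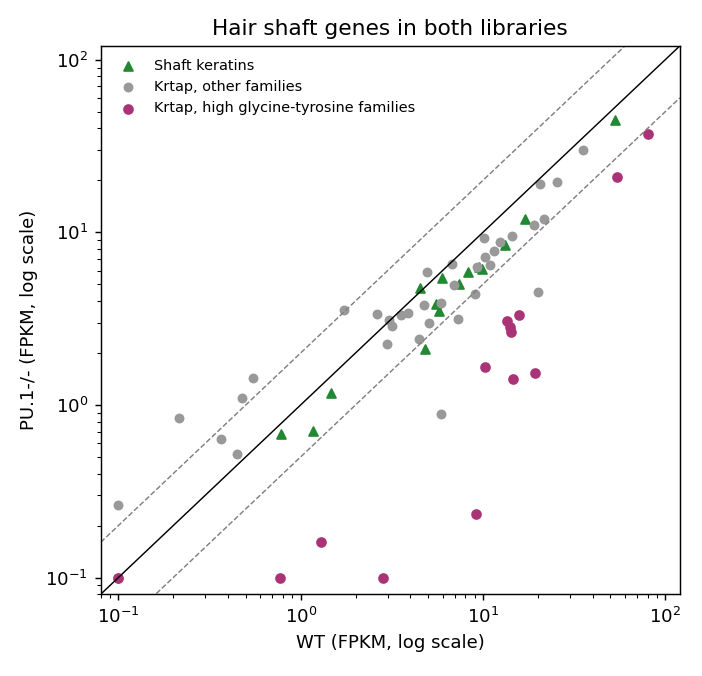
FPKM in the WT (x axis) and PU.1-/- (y axis) libraries, both on log scales, of the shaft keratins and the keratin-associated protein genes, with values below 0.1 raised to 0.1. The solid line marks equal levels and the dashed lines 2-fold. The 13 genes of at least 0.1 FPKM of the high glycine-tyrosine families lie below the lower dashed line, and most shaft keratins lie between the solid and that line.

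Genes of other cells of the follicle lay nearer to level. In the list of the dermal papilla, the dermal cells that instruct the matrix, 7 of 10 genes were above their WT level, with a median log2 ratio of 0.19 that became 0.03 with scaling on interfollicular keratinocyte markers. The counting interval lay above 1 for 3 of the 10 and below 1 for 1. Corin, a protease of the papilla, was the 1 gene at least 2-fold higher, at 0.464 and 1.31 FPKM, a ratio of 2.82 (1.84 to 4.44) from about 29 and 94 reads. Fgf7 was at 19.9 and 24.9 FPKM, Sox18 at 22.7 and 22.3 FPKM and Crabp1 at 33.0 and 23.9 FPKM, so that the list did not move one way. The melanocyte list, whose cells colour the shaft, had a median log2 ratio of 0.15 over 9 genes, from −0.58 to 0.38, and the interval lay above 1 for 3 genes. Scaling on the keratinocyte markers moves every log2 ratio by −0.16, about the size of that median.

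Markers of other cells also differed between the libraries. Of 9 listed markers of interfollicular keratinocytes 8 were above their WT level, summing to 13264 and 14961 FPKM, with a median log2 ratio of 0.16 and Krt14, Krtdap and Krt10 the most abundant. The 8 markers of skeletal muscle were each higher in PU.1-/-, summing to 8387 and 14275 FPKM, with log2 ratios from 0.64 to 1.59. The 8 markers of dermal fibroblasts were each above their WT level, summing to 2739 and 3243 FPKM. The 7 leukocyte markers summed to 641 (WT) and 2.43 FPKM (PU.1-/-), with 3 of them (Tyrobp, C1qb and Ptprc) listed at 0 in PU.1-/-. Of 8 genes that most cells express, log2 ratios ran from −0.61 for Actb to 0.13 for Gapdh, with a median of −0.02. The part of these differences in the values of the regulators was not tested.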

How the data were processed

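Wounds of WT and PU.1-/- neonates were profiled by stranded mRNA sequencing, 1 library per genotype. The authors mapped the reads to mouse mm10 and deposited FPKM values per gene symbol, calculated with Cuffnorm 2.2.1. The submitters' processing notes also name TopHat2 2.1.1, Bowtie2 2.2.8, SAMtools 0.1.18 and Cuffdiff 2.2.1. The sources used here do not give the gene annotation or say whether counting used strand. FPKM divides by transcript length, so values depend on the transcript models used.

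Ratios (PU.1-/- over WT) were taken from the deposited FPKM, with values below 0.1 raised to 0.1 for log2 ratios and for counts of genes at least 2-fold different. The authors' scaling between libraries was kept. Depth was estimated from the files. Among genes below 2 FPKM in WT, 422 shared 1 ratio of the libraries, 1.15, within 1e-05 (the ratio of equal read numbers). Over 285 such genes with 1 transcript length above 800 nt, FPKM times length less 205 nt peaked at the value of 1 read. Lengths are the longest GENCODE M21 transcript linked to RefSeq, found for 94.5% of genes. Under 20 reads, 69.8% of WT and 71.1% of PU.1-/- estimates were within 0.1 of a whole number. For 6 of the 10 regulators the FPKM ratio was also one of small whole numbers, and the nearest multiple was used. Intervals are exact at 95%, Poisson for levels and binomial for ratios.

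With 1 library per genotype no test was run. The regulators and gene lists were chosen with earlier results of these data known. Named list genes are those at least 2-fold different with 1 FPKM or more (up to 6 a list, by size), the 3 most abundant of each list that was described by named genes, and the direct partners Eda, Edaradd, Ptch1, Gli1, Ctnnb1, Wnt10a, Dlx3, Foxq1, Krt35, Krt85 and Dsg3. Dkk1, Lgr5, Lgr6, Axin2, Wnt3a, Hhip, Dsc1, Dsg1a, Krt74, Krt34, Krtap19-4 and the markers listed at 0 were chosen after their values were seen. Flg, a keratinocyte marker, was not found among the symbols. Likeness of pattern between genes was not computed with 2 libraries. The functions were tested on simulated data. Scripts ran in Python 3.11.15 with scipy 1.17.1, numpy 2.4.6 and pandas 2.3.3, and figures were drawn with matplotlib 3.10.9.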

Additional observations from a re-analysis of the deposited data

How the results depend on the processing

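The counts of regulators at least 2-fold lower and 2-fold higher were 0 under each of the 9 alternatives, and their median log2 ratio stayed below 0 under each alternative tried. Of 60 single ratios of the regulators under other floors, a pseudocount of 1 FPKM and other scalings, 59 stayed within their counting interval. The sign changed in 1, Lhx2 with equal FPKM sums. The 1 outside was also Lhx2, at a log2 ratio of −0.20 with the libraries scaled on interfollicular keratinocyte markers. This scaling on keratinocyte markers moved all ratios by −0.16 and took the median log2 ratios to -0.0201 for the Shh pathway, -0.0944 for desmosomal genes, −0.23 for other matrix regulators, −0.16 for the outer root sheath and 0 for the keratinocyte markers themselves. Equal FPKM sums gave the latter 0.20. Of the shaft keratins 0 were 2-fold lower with a pseudocount of 1 FPKM, 6 passed 1.5-fold and 0 passed 3-fold. The 5 higher Krtap genes became 1 with a floor of 1 FPKM, 0 with a pseudocount of 1 FPKM, 3 with genes of at least 1 FPKM, 1 at 3-fold and 1 with at least 20 reads, a filter chosen after seeing the data. Over all genes, the 1057 lower and 565 higher became 1778 and 1220 with a floor of 0.01 FPKM, 463 and 164 with a floor of 1 FPKM, 461 and 89 with a pseudocount, 589 and 226 with genes of at least 1 FPKM, and 681 and 150 at 3-fold. No paired analysis was possible because each genotype has 1 library. Counting error limits Edar most, and a spread between animals was not measured for any gene.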
